A study of Mus musculus with 10 samples.

Results

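Ribosome footprints were counted in the 3′UTR, the stretch of an mRNA after its coding sequence (CDS), in cultured mouse neural cells. A transcript was taken as a member when at least 30 footprints fell on its 3′UTR, summed over the 5 ribosome footprinting (RF) libraries. Of 22534 transcripts listed, 475 (2.11%) met this rule, whereas 9287 had at least 1 footprint in the 3′UTR. Members held 53156 of the 88642 3′UTR footprints. For 456 members, from 332 genes, a CDS and a 3′UTR were found in the annotation used here (GENCODE M21, genome build GRCm38). The other 19 carried between 30 and 1072 reads and entered the KCl tests but no ratio. The members were thus chosen by their 3′UTR footprint counts, so the level of these counts and of the ratios made from them is a description. Tests were made of changes with KCl, fitted over all transcripts with enough reads.

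Cortical cells of FVB mouse pups at postnatal day 0 were kept in culture for 7 days, where neurons grew together with glia. Cultures 1, 2 and 3 were left untreated, and cultures 4 and 5 were depolarized with 55 mM KCl for 3 h. The labels name no altered allele. Every culture received cycloheximide, which stalls ribosomes on mRNA, for 7 min before harvest, and gave 1 RF and 1 RNAseq library. A further KCl replicate was left out by the authors for its low library size.

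RF libraries held between 1463654 and 7719915 reads and RNAseq libraries between 3056286 and 3629959. The share of RF reads in the 3′UTR was 0.415%, 0.428% and 0.71% in untreated cultures 1, 2 and 3, and 0.375% and 0.389% in KCl cultures 4 and 5. Culture 3 stood apart, with the lowest RF depth and the highest 3′UTR share. The rule sums raw reads, so the deeply sequenced untreated cultures 1 and 2 weigh most in it. In RNAseq, the astrocyte markers Gfap, Aqp4 and Gja1 ranged from 447 to 5570 RPM (reads per 1e6 library reads) and the neuronal markers from 9.51 (Rbfox3) to 207 (Stmn2). Oligodendrocyte lineage markers ranged from 43.3 (Pdgfra) to 673 (Mbp) and microglial markers from 4.33 (Aif1) to 43.7 (Csf1r). The fibroblast marker Col1a1 lay between 241 and 371, whereas the endothelial markers Cldn5 and Pecam1 stayed at or under 2.45. In such bulk cultures, fewer cells of a type and less RNA per cell cannot be told apart.

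A translating ribosome starts at a start codon, moves along the CDS and is released at the stop codon, so the 3′UTR is normally almost free of footprints. Known ways by which a stretch annotated as 3′UTR carries footprints include an isoform in which the same stretch is CDS, a further reading frame downstream, passage through the stop codon, a shift of frame, and ribosomes or other particles that remain on the RNA after termination. Alternative splicing and alternative last exons, which are common in neural tissue, place the coding end of one isoform inside the 3′UTR of another.

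The deposited counts treat the bases just after the stop codon separately. One region appeared to run from the annotated stop codon to the next stop in the same frame: 0.679% of transcripts had RNA reads in it where that next stop was 18 to 29 nt away, against 96.9% at 200 nt or more. The 3′UTR footprints described here therefore lie beyond that next stop, and footprints of simple stop codon readthrough are counted elsewhere. Among the members, 26 transcripts of 23 genes had more footprints before the next stop than beyond it. Aqp4, the astrocytic water channel and a known readthrough gene, had 870 before it and 64 beyond it. Nnat, which encodes a small neuronal membrane protein, had 3794 before it and 36 beyond it.

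The annotated stop codons that divide CDS from 3′UTR are shown in capitals, between their neighbouring bases, for 8 members on which the account below turns. Bases and coordinates are from GENCODE M21 models on GRCm38.
Zfp703 (3′UTR chr8:26978388-26978733, plus strand): ctcggggacTAAcccacaagc
Il6st (3′UTR chr13:112494596-112501141, plus strand): gcctctttcTGAagccaatgg
Rnd3 (3′UTR chr2:51131835-51133956, minus strand): tgttttgccTGAatgtttatc
Nxf1 (3′UTR chr19:8765276-8770907, plus strand): cttctttctTGAacacagcct
Chtf8 (3′UTR chr8:106883894-106886301, minus strand): aagaaagtaTGAaagaacccc
Peg10 (3′UTR chr6:4755352-4760517, plus strand): gccccgctgTAGggggacctt
Hes7 (3′UTR chr11:69122995-69124055, plus strand): ccttggcccTGAgcttttggg
Gpm6a (3′UTR chr8:55058930-55060871, plus strand): gcgtacacaTAAatacgcttc
In 2 further members the 3′UTR contains the start of a different annotated gene on the same strand. The start codon of that downstream gene is in capitals, and the range is that of the 3′UTR around it.
Exosc6 in the Aars 3′UTR (chr8:111055205-111057664, plus strand): ccggtagccgccATGccgggagaccat
C1qtnf5 in the Mfrp 3′UTR (chr9:44106468-44109187, plus strand): ggggtcaccaccATGaggccacttctt

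To separate high expression from a high ratio, the footprint density (reads per nt) of the 3′UTR was divided by that of the CDS. Pooled over all annotated transcripts this ratio was 0.00606. Multiplying it by a transcript's CDS density and 3′UTR length gave the 3′UTR footprints that its CDS level and 3′UTR length alone would predict. For 82 members this number was at least 30, so CDS level and 3′UTR length sufficed, and these were counted as reached by expression. For the other 374, counted as reached by ratio, it was below 30. Of these 374, 24 had no CDS footprints and therefore no ratio, and the rest had a ratio above the pooled one. The number reached by ratio was 238 without untreated culture 1 and 245 without untreated culture 2, since the same threshold was then applied to fewer reads. The ratio was at least 0.1 in 191 members, between 0.01 and 0.1 in 166 and below 0.01 in 75. The median member ratio was 0.0715, with quartiles of 0.0179 and 0.296. Of 14593 transcripts with at least 100 CDS footprints, 7008 (48.0%) had no 3′UTR footprint and 223 (1.53%) had a ratio of at least 0.1.

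**Figure D1:**
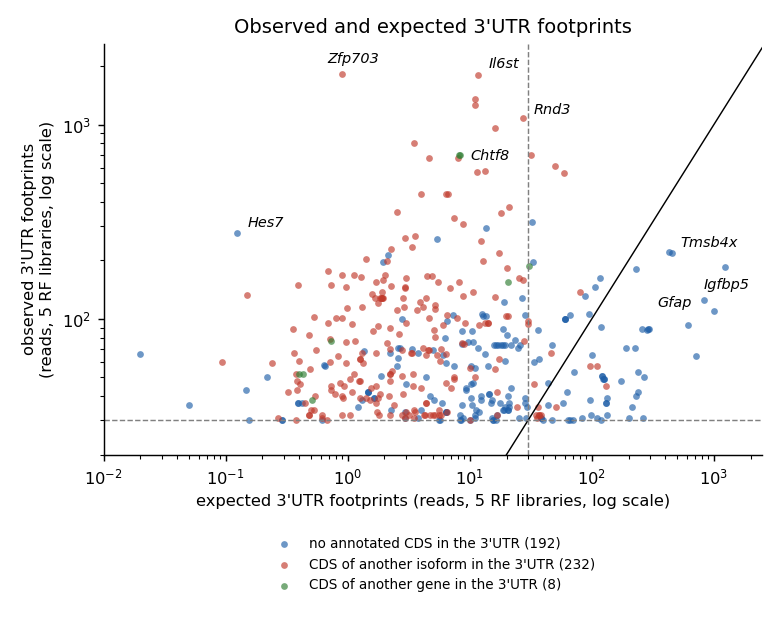
Observed 3′UTR footprints summed over the 5 RF libraries (vertical, log axis) against the number predicted from CDS density, 3′UTR length and the pooled ratio of 0.00606 (horizontal, log axis), 1 point per member with CDS footprints (n = 432), coloured by the annotation of the 3′UTR. The solid line marks equality and dashed lines 30 reads; Tmsb4x, Gfap and Igfbp5 lie below the solid line and Zfp703 and Hes7 far above it.

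The members reached by expression, which includes the part of 3′UTR length, included abundant glial and cytoskeletal mRNAs. Tmsb4x, which encodes an actin-sequestering peptide, had 105, 57, 23, 13 and 23 footprints in the 3′UTR in cultures 1 to 5, against 23464 in the CDS, a ratio of 0.00312. Gfap, the astrocyte intermediate filament, had 42, 26, 12, 13 and 32 against 143061 in the CDS, a ratio of 0.000914. Igfbp5, which binds insulin-like growth factors, had 60, 73, 15, 11 and 26 against 37448, a ratio of 0.000907. All 3 had fewer 3′UTR footprints than predicted: 221 against 430 for Tmsb4x, 125 against 829 for Gfap and 185 against 1240 for Igfbp5. Slc1a2, the main astrocytic glutamate transporter, likewise had 93 against 617. The ratio of each of these mRNAs lay below the pooled one, and their level and 3′UTR length brought them past the threshold. That pooled ratio includes 3′UTRs that overlap CDS of another isoform. Over transcripts with no annotated CDS in the 3′UTR, as in these mRNAs, it was 0.00337, close to the Tmsb4x ratio.

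At the other end, Zfp703, a zinc finger regulator of transcription, had the most 3′UTR footprints of any annotated member, with 784, 658, 142, 93 and 147 in cultures 1 to 5. Only 325 fell in the CDS of that transcript, a ratio of 12.4. Il6st, the receptor subunit gp130 shared by the interleukin 6 family, had 706, 645, 124, 121 and 200 and a ratio of 0.941. In both, the whole 3′UTR beyond the next stop is CDS in another annotated isoform. Kif1bp, a partner of kinesin motors, followed with 1358 footprints and a ratio of 0.745, and Tusc3, a subunit of the oligosaccharyltransferase, with 1263 and 0.694. Rnd3, an atypical small GTPase, had 1087 with a ratio of 0.241, and Hspa13, an Hsp70 family chaperone, had 961 with 0.361.

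Members differed from all transcripts in what is annotated in the 3′UTR. In 237 members (52.0%) the 3′UTR overlapped CDS of another isoform of the gene, compared with 5.1% of 21792 annotated transcripts. A further 8 (1.75%, against 0.876%) overlapped CDS of a different gene or shared its sequence, and 211 (46.3%, against 94.0%) held no annotated CDS. The median ratio was 0.188 in the first group, 0.516 in the second and 0.0199 in the third. Isoform CDS members held 69% of the footprints of annotated members and members without annotated CDS held 27.0%. Of the isoform CDS members, 220 were reached by ratio and 17 by expression, against 147 and 64 of those without annotated CDS. Members had longer 3′UTRs than all transcripts (median 1480 against 876 nt) and shorter CDS (656 against 1350 nt), and their 3′UTR spanned several exons more often (15.4% against 5.81%). The annotated stop was TGA in 48.9% of members and 51.0% of all transcripts.

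A high ratio can also arise when the 3′UTR RNA is more abundant than the CDS RNA of that transcript model, so each footprint ratio was divided by the same ratio of RNAseq reads. Of 191 members with a footprint ratio of at least 0.1, 125 stayed at or above 0.1 after this division. Among isoform CDS members 110 of 150 stayed, and among members without annotated CDS 9 of 35 stayed. In each of these groups 2 had no CDS RNA reads, so they had no corrected ratio and counted as not staying. With these included, 24 of the 150 and 9 of the 35 had under 10 CDS RNA reads, which makes their corrected ratios uncertain. In 28 of the 35 members without annotated CDS the 3′UTR had at least 3 times the RNA density of the CDS. Hnrnpa2b1, an RNA-binding protein, had a ratio of 4.36 but 4025 RNA reads on the 3′UTR and 0 on the CDS of the member transcript. Tusc2 had a ratio of 1.39 with 447 RNA reads on the 3′UTR and 1 on the CDS. For Zfp703 the RNA density ratio was 117, and the footprint ratio divided by it was 0.106. For Il6st the RNA ratio was 0.928 and the corrected ratio remained 1.01.

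**Figure D2:**
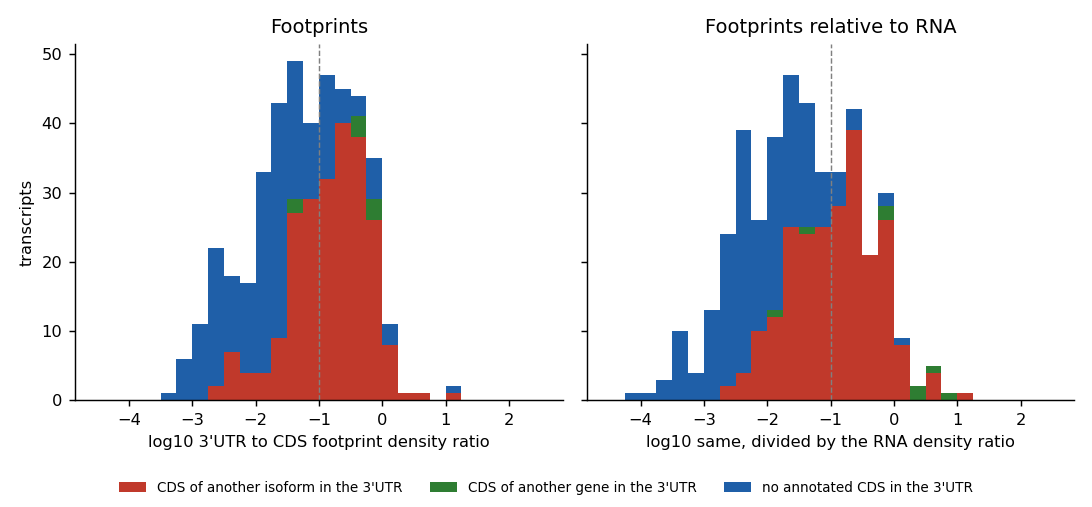
Histograms of the 3′UTR to CDS footprint density ratio of members with CDS footprints and RNA reads in both regions (left) and of that ratio divided by the RNA density ratio (right, the same 426 members), with the log10 ratio on the horizontal axis, the number of transcripts on the vertical axis and stacked colours for the annotation of the 3′UTR. The dashed line marks a ratio of 0.1, above which most transcripts have CDS of another isoform in the 3′UTR, in particular after division by the RNA ratio.

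Per RNA read, the occupancy of the 3′UTR differed widely between these classes. Isoform CDS members had a median of 464 3′UTR footprints per 1000 3′UTR RNA reads, and members without annotated CDS had 20.2. On the CDS the medians were 3160 and 3440. Over 12633 transcripts with enough reads in every region, the median was 2.32 for the 3′UTR and 3060 for the CDS. These are levels per RNA read, and the footprint threshold of the rule raises them in members.

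In 3 genes of the class with CDS of another gene, the 3′UTR runs over a downstream gene. In Aars, which encodes alanyl-tRNA synthetase, the start codon of Exosc6, an RNA exosome subunit, lies 1166 nt after the Aars stop, and 822 nt of Exosc6 CDS are in the 3′UTR. The Aars 3′UTR as a whole had 72, 46, 10, 9 and 18 footprints, with a ratio of 0.0456. The counts give no position within a 3′UTR, here and in the genes below. In Mfrp, a membrane protein of the retinal pigment epithelium, the start of C1qtnf5 lies 1290 nt after the stop and 732 nt of its CDS are in the 3′UTR. Mfrp had 20, 16, 5, 5 and 6 footprints in the 3′UTR and 52 in all on the CDS, a ratio of 0.732. In Chtf8, which acts in sister chromatid cohesion, 1505 nt (65%) of the stretch are RefSeq CDS of Derpc. The Chtf8 3′UTR as a whole had 303, 241, 68, 34 and 54 footprints, a ratio of 0.519. Peg10, a gene derived from a retrotransposon and translated with a programmed frameshift, had 202, 184, 36, 63 and 91, a ratio of 0.261, and 1853 nt (36.2%) of its 3′UTR are CDS of the later frame.

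Among genes whose 3′UTR held no annotated CDS, 19 had a ratio of at least 0.1, and in 7 it stayed there after division by the RNA ratio: Preb, Hes7, Eif1b, Tmem38b, Tlcd1, Trub1 and Cmah. Hes7, a transcriptional repressor of the segmentation clock, had 73, 91, 69, 23 and 21 footprints in the 3′UTR, 13 in the CDS and only 13 RNA reads on the 3′UTR. In that 3′UTR 28.1% of bases are repeats and 9.87% of its 28-base words occur in transcripts of other genes, so the origin of the reads is uncertain. Eif1b, a factor of start codon selection, had 123, 79, 25, 10 and 20, and Tmem38b, a subunit of an intracellular cation channel, had 70, 92, 6, 6 and 40. The Tmem38b values varied within both groups. Other members share reads too: 136 transcripts had the same 5 counts as another member of their gene, and 9 Pcdhg protocadherin genes, which share their last exons, each had the same 73 reads.

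The spread over cultures differed between the classes. Isoform CDS members reached by ratio took 1510, 1630, 1540, 1560 and 1490 RPM in cultures 1 to 5. Members without annotated CDS reached by ratio took 437, 438, 726, 261 and 264, and those reached by expression 232, 207, 538, 188 and 216. Transcripts that were not members took 1600, 1630, 3600, 1400 and 1590. Culture 3 was thus highest in each of these sets except the isoform CDS members, where it was in the middle. The spread of the log2 3′UTR to CDS ratio was taken for members with at least 5 reads in both regions of every RF library. Its median SD over the untreated cultures was 0.31 for isoform CDS (80 of 237 members) and 0.72 without annotated CDS (29 of 211). Culture 3 has the lowest RF depth, so this filter favours members high in it, and 20 of the 29 were highest there. Lower counts also widen the spread, and their part in this difference was not tested. Tlcd1 had 53 of its 100 footprints in culture 3, which holds 7.15% of RF reads. Kif1a, a kinesin motor of axonal transport, had 32, 13, 98, 12 and 42, although its annotated stretch beyond the next stop is 18 nt long in the models used here.

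**Figure D3:**
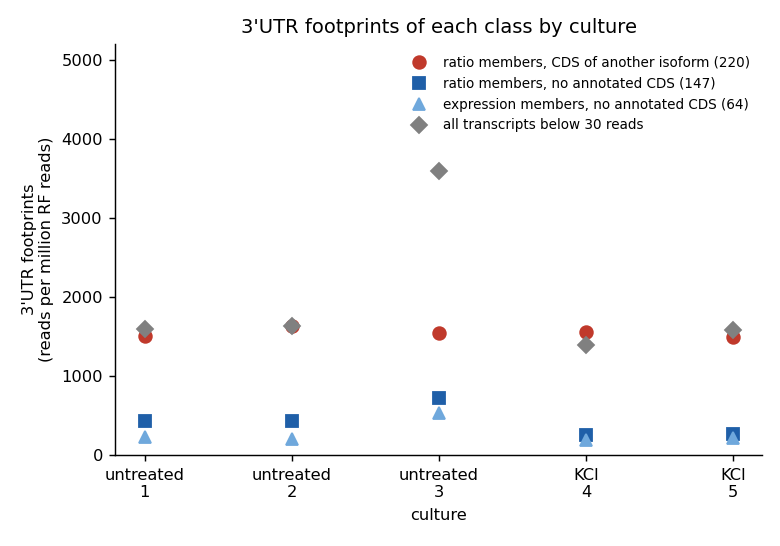
3′UTR footprints in RPM (vertical) in untreated cultures 1 to 3 and KCl cultures 4 and 5 (horizontal), 1 symbol per class summed over its transcripts. Isoform CDS members reached by ratio stay between 1490 and 1630, whereas members without annotated CDS and transcripts below 30 reads are highest in culture 3.

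**Figure D4:**
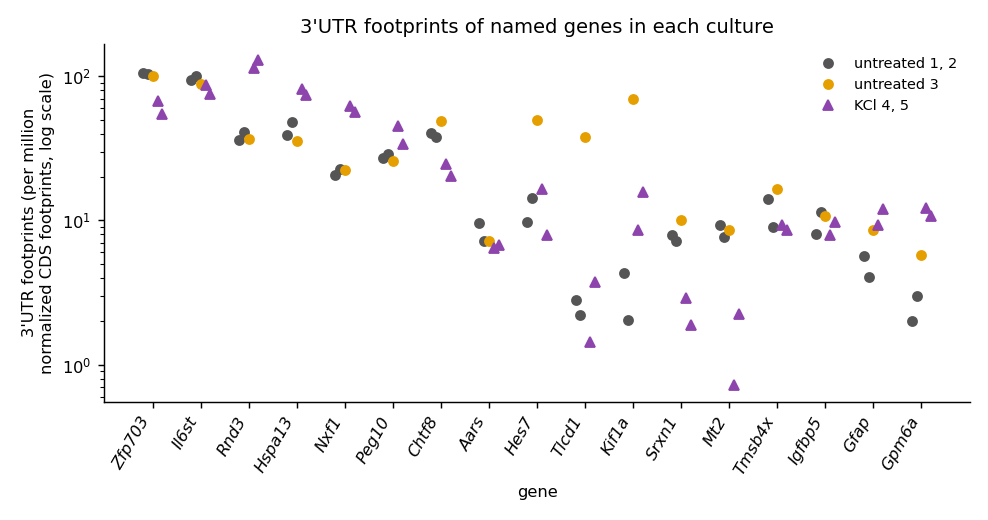
3′UTR footprints relative to normalized CDS footprints (vertical, RPM, log axis) for named member genes (horizontal), 1 point per culture, with circles for untreated cultures (culture 3 in orange) and triangles for KCl cultures 4 and 5. Rnd3, Hspa13 and Nxf1 lie higher in both KCl cultures than in every untreated culture, Zfp703 and Chtf8 lie lower, and Hes7, Tlcd1 and Kif1a are highest in culture 3.

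The pooled 3′UTR to CDS ratio was compared between untreated and KCl cultures. It was 0.00582, 0.00595 and 0.00997 in cultures 1 to 3 and 0.00528 and 0.0055 in cultures 4 and 5, with means of 0.00725 ± 0.00236 (SD, n = 3) and 0.00539 ± 0.000157 (SD, n = 2). The exact two-sided permutation test gave p = 0.2, and with 3 against 2 cultures it cannot go below 0.1. The difference of KCl minus untreated was -0.00186, and -0.000497 without culture 3. With culture 3 the SD of the untreated cultures was larger than this difference. Without it, the untreated values of 0.00582 and 0.00595 both lay above the KCl values of 0.00528 and 0.0055. Culture 3 was left out after the data were seen, and the exact permutation test then gave p = 0.333. With 2 against 2 cultures that test cannot go lower, so no effect of KCl is read from this order.

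The change of 3′UTR footprints with KCl was tested with edgeR over 1324 transcripts with at least 10 3′UTR footprints, and the calls depended on the processing. At an adjusted p under 0.05, 21 transcripts (1.59%) were called, and 18 of these were among the 475 members. Higher counts were called in 6 members, where the share over all transcripts tested was 0.68%. Lower counts were called in 12, where that share was 0.906%. Scaling by library totals gave 6 and 27. Members have by their rule more 3′UTR reads than the other transcripts tested, and nothing is read from their share of calls. The count was 40 without untreated culture 3, 2 without untreated culture 1, 10 without untreated culture 2 and 1 when either of the KCl cultures was left out. DESeq2 called 0 members, with 33 at an unadjusted p under 0.05, where edgeR had 112. Normalization on 3′UTR footprints in place of CDS footprints also gave 0 calls and 76 at unadjusted p. The p-values rest on a spread between these cultures that edgeR estimated partly by sharing information over all transcripts tested.

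Rnd3 changed most clearly. Its 3′UTR footprints, in RPM scaled to normalized CDS footprints unless raw reads are named, here and for the genes below, were 36.3, 41.0 and 36.5 in the untreated cultures and 114 and 129 with KCl. Both KCl cultures lay far above the untreated ones, a log2 change of 1.68 ± 0.15 (SE; adjusted p = 7.16e-24). Its CDS footprints rose by 1.60 ± 0.13 on the log2 scale (adjusted p = 4.19e-20), and its 3′UTR RNA differed by 0.71 (adjusted p = 0.0573). Rnd3 was called under every alternative run except DESeq2 and normalization on 3′UTR footprints.

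The other rises were in Nxf1, Hspa13, Arid4b, Ttc14 and Gpm6a. Like Rnd3, all of these except Gpm6a have CDS of another isoform in the 3′UTR. Nxf1, the main mRNA export receptor, had 20.6, 22.8 and 22.2 untreated and 62.6 and 56.5 with KCl, with no overlap, a log2 change of 1.44 ± 0.21 (adjusted p = 1.5e-09), and its 3′UTR RNA rose by 1.21. Hspa13 had 39.2, 48.0 and 35.7 against 81.3 and 74.5, a change of 0.92 ± 0.17 (adjusted p = 3.86e-05), with CDS footprints up by 1.15 ± 0.14. Arid4b, a subunit of a histone deacetylase complex, had 3.48, 3.30 and 2.14 against 12.2 and 12.7, a change of 1.98 ± 0.42, and its CDS footprints rose by 2.62 ± 0.15. In all 3 the CDS footprints rose too, by 1.31 in Nxf1. Gpm6a, a neuronal membrane glycoprotein whose 3′UTR has no annotated CDS, had 2.01, 2.98 and 5.72 against 12.2 and 10.8, a change of 1.86 ± 0.44 in the 3′UTR (adjusted p = 0.004) and 0.45 ± 0.08 in the CDS. Ttc14 rose by 1.63 ± 0.39 in the 3′UTR, and its CDS value was 0.46 ± 0.27 (adjusted p = 0.218).

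Lower 3′UTR footprints were called in the genes that follow. Of these, Zfp703, Mt2, Orai3 and Zbtb25 have CDS of another isoform in the 3′UTR and Chtf8 has CDS of another gene. Srxn1, Zfp706 and Ufm1 have no annotated CDS there. Zfp703 and Chtf8 had at least 30 reads in the KCl cultures alone, but the others reached 30 through the untreated cultures, so that their lower values with KCl are a description of reads the rule used. Zfp703 had 105, 103 and 101 untreated and 66.9 and 55 with KCl, and fell by 0.76 on the log2 scale (SE 0.15; adjusted p = 9.02e-05), and its CDS footprints changed by -0.72 (adjusted p = 0.0328). Chtf8 had 40.6, 37.8 and 48.6 against 24.5 and 20.2, a log2 change of -0.92 ± 0.22 (adjusted p = 0.004). Mt2, a metallothionein, had 9.24, 7.69 and 8.58 against 0.719 and 2.24, a log2 difference of -2.34 ± 0.54, with 3′UTR RNA at -0.87. In each of these the KCl cultures lay below every untreated culture. Srxn1, which repairs oxidized peroxiredoxins, differed by -1.83 ± 0.52 in 3′UTR footprints and changed by -1.34 in CDS footprints and -1.96 ± 0.17 in 3′UTR RNA. Zfp706 differed by -2.39 ± 0.57, Orai3, a calcium channel subunit, by -1.91 ± 0.49 and Zbtb25 by -1.55 ± 0.45, and none of these 3 passed the test in the CDS. Ufm1, a ubiquitin-like modifier, differed by -1.79 ± 0.46 in the 3′UTR and 0.46 ± 0.15 in the CDS, the opposite sign. Of 15 called genes with a CDS fit, the other 14 had the same sign in both, whether or not the CDS change passed.

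Id3, an inhibitor of basic helix-loop-helix factors, had 52 raw 3′UTR reads in the untreated cultures together and 1 with KCl. The depth-adjusted ratio of untreated to KCl was 13.9 (95% interval 2.38 to 558, counting error only). Id3 met the rule for members through its untreated reads, so this ratio is a description of reads the rule used. The interval takes reads as replicates and leaves out the spread between cultures, so no effect of KCl is read from it.

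**Figure D5:**
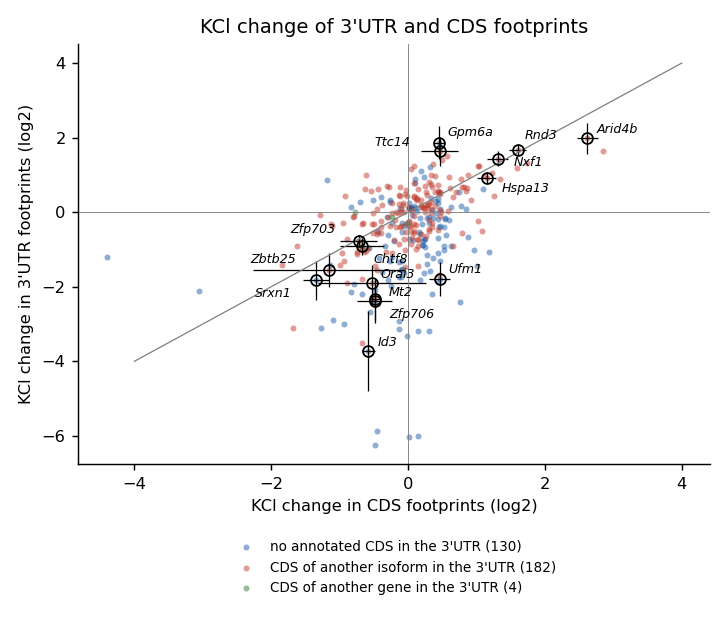
Log2 change with KCl in 3′UTR footprints (vertical) against that in CDS footprints (horizontal), 1 point per member gene with both fits (n = 316), coloured by the annotation of the 3′UTR. The 15 genes called for 3′UTR footprints are ringed and named with bars of 1 SE, and the diagonal marks equal changes; Rnd3 and Nxf1 lie near it, and Ufm1 alone of the 15 has opposite signs.

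No member changed its 3′UTR to CDS ratio past the threshold. edgeR called 0 of 1324 transcripts (0%), with 48 members at an unadjusted p under 0.05, and DESeq2 called 0 with 25. Eif1b had the lowest p: its log2 ratio differed by -2.21 ± 0.50 (adjusted p = 0.256), with values of 16.5, 12.4 and 17.9 untreated and 7.19 and 7.48 with KCl in the 3′UTR while its CDS footprints changed by 1.18 ± 0.16. For footprints per 3′UTR RNA, edgeR called 0 of 1295 (0%), with 47 members at an unadjusted p under 0.05, and DESeq2 called 0 with 22. Without untreated culture 3 these counts of called members were 2 for the ratio and 5 per RNA.

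The median log2 change of 3′UTR footprints was -0.29 over members and -0.41 over all transcripts tested. It was -0.01 for isoform CDS members and -0.86 for members without annotated CDS, of which 159 of 211 (75.4%) lay below 0. Without culture 3 these medians were -0.03 and -0.51. Transcripts tested that are not members and have no annotated CDS in the 3′UTR had a median of -0.60. The part of culture 3 in the remaining difference between classes was not tested. Members and transcripts tested were chosen by reads summed over cultures, where untreated cultures 1 and 2 weigh most. A low-count 3′UTR can thus pass mainly through untreated reads, which favours a median below 0 in advance. With no filter beyond 1 read, the median over all transcripts tested was -1.58. Nothing about an effect of KCl is read from these medians or from the share below 0.

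3′UTR RNA and CDS footprints, which were not used to choose the members and have more reads, were called in more of them. For 3′UTR RNA, 2857 of 16086 transcripts (17.8%) were called, and 106 of 464 members. Of these members 73 (15.7% of members tested) were higher and 33 (7.11%) lower, beside 11.2% and 6.52% of all transcripts tested, and scaling by library totals gave 53 and 49. The count was 57 without KCl culture 4. For CDS footprints, 5413 of 18799 transcripts (28.8%) were called and 152 of 444 members. Of these members 114 (25.7% of members tested) were higher and 38 (8.56%) lower, beside 14.8% and 14% of all transcripts tested, and library totals gave 66 and 61. It was 92 without KCl culture 4 and 72 without KCl culture 5. These counts are of transcripts, and transcripts of a gene can share reads: Crem alone gave 8 of the higher ones in each assay. By gene, annotated members called in 3′UTR RNA were 41 higher and 27 lower, and in CDS footprints 71 and 28. Shares by gene over all transcripts tested were not computed, and nothing is read from the shares of members called. Crem, a cAMP-responsive transcription factor with activity-induced isoforms, rose by 2.90 ± 0.22 in 3′UTR RNA (adjusted p = 1.42e-34) and by 2.85 ± 0.19 in CDS footprints (adjusted p = 1.92e-26). Mfrp had the larger value in 3′UTR RNA, 3.11 ± 0.98 (adjusted p = 0.0129), from 1, 0 and 2 reads untreated and 8 and 11 with KCl. Stard4, a cholesterol transporter, rose by 2.46 in RNA and 1.74 in CDS footprints. Cyp1b1, a cytochrome P450, changed by -1.91 in RNA and -1.68 in CDS footprints, and Trub1, a tRNA pseudouridine synthase, by -2.68 ± 0.50 in RNA.

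Gene groups with known unusual decoding were looked up among the members, which make up 2.11% of all transcripts. Of 9 known readthrough genes 1 was a member (Aqp4), of 14 selenoprotein genes 3 (Selenof, Selenot and Selenow), of 3 frameshift genes 1 (Peg10), and of 6 genes with 2 reading frames on 1 mRNA 1 (Mtpn). By transcript these were 1 of 19, 3 of 22, 1 of 8 and 1 of 11. Selenoprotein mRNAs carry in the 3′UTR the element that recodes UGA as selenocysteine. Selenot had 14, 11, 32, 5 and 6 footprints there, more in culture 3 than in any other culture. Of 42 ribosomal protein genes 1 was a member (Rps9), and of 27 replication-dependent histone genes 0. Of 8 translation elongation, initiation and poly(A) binding genes 2 were members, the initiation factors Eif4a2 and Eif4g2. Of 17 genes for cytoskeletal and other abundant neural mRNAs, 4 were members (Dpysl3, Map1b, Stmn2 and Tmsb4x). Their 6 transcripts were reached by expression, with a median ratio of 0.00303. Of 19 immediate early and activity-induced genes 1 was a member, Crem, and of 25 RNA-binding and splicing factors 1, Hnrnpa2b1. By transcript, these lists from the ribosomal proteins on had 1 of 57, 0 of 29, 3 of 11, 6 of 20, 8 of 43 (all Crem) and 1 of 64. The 2.11% is a share of transcripts, so only the counts by transcript can be set beside it. No transcript of these lists was called for a KCl change in 3′UTR footprints.

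Transcripts near the threshold of 30 footprints are given without a test. Just outside it, Prrt1 had 29 footprints and a ratio of 0.187, Id2 had 29 and 0.0174, and Csnk1d had 28 and 0.00622. Just inside it, Bcl2l1 had 30 and 0.0217, Dnajb12 had 30 and 0.0317, and Itgb8 had 30 and 0.00459. In all, 25 transcripts had 28 footprints, 16 had 29, 23 had 30 and 21 had 31.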

How the data were processed

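RNAseq and RF libraries of 5 mouse cortical cultures were analysed. The authors trimmed reads (Trimmomatic 0.32), aligned them (Bowtie2 2.2.2, STAR 2.3.1z8) and counted them per transcript region (bedtools 2.20.1). The values used are their deposited raw counts per Ensembl transcript. What each region letter stands for was inferred from the counts and annotation. Members and gene lists were chosen with earlier results of these data known.

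Reads of a region were divided by its length in GENCODE M21 (GRCm38), an annotation later than the one counted on. Changes with KCl were fitted in edgeR 4.0.16 (R 4.3.3; glmQLFit and glmQLFTest) over all transcripts with at least 10 reads, with TMM factors from CDS counts (RF) or the counts of all regions (RNAseq) and Benjamini-Hochberg adjustment (threshold 0.05). SE is the log2 change divided by the square root of F, an approximation. The ratio and per-RNA fits had culture as a block, since the RF and RNAseq libraries of a number came from the same lysate. Alternatives were DESeq2 1.42.0, other filters and scalings, 1 transcript per gene and leaving out each culture. Genes were named by a rule: most footprints, highest ratio, largest KCl changes, list members and those at the threshold; Aars, Preb, Eif1b, Tlcd1, Nnat, Tmsb4x, Gfap, Igfbp5 and Slc1a2, the threshold examples and list members outside it were chosen after their values were seen. Tables were made with Python 3.11.15, pandas 2.3.3 and scipy 1.17.1. A called gene is not reported here. The fitting code was tested on simulated data. RF depth ranged from 1463654 to 7719915 reads, which limits low counts most in culture 3.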

Additional observations from a re-analysis of the deposited data

How the results depend on the processing

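For 3′UTR footprints, the 18 members called became 0 with DESeq2, 4 with no filter beyond 1 read, 33 with library totals in place of TMM, 0 with TMM on 3′UTR counts, and between 1 and 40 when each culture was left out. For the ratio, 0 became 2 with the filterByExpr filter and between 0 and 2 when each culture was left out. Footprints per RNA gave 1 with filterByExpr, 1 with TMM on 3′UTR counts and between 0 and 5 on leaving out each culture. Without the replicate block, both the ratio and the per-RNA fit called 3 members, against 0 with the pairing. RNA calls ranged from 57 to 101 and CDS calls from 72 to 150 on leaving out each culture. Members reached by ratio numbered 228 at a threshold of 50 reads and 238 to 340 on leaving out each culture, against 374. The median member ratio was 0.0804 as the mean of single cultures, 0.0883 with 1 transcript per gene and, in an alternative chosen after seeing the data, 0.0788 with the length beyond the next in-frame stop. The pooled ratio was also examined without each culture after seeing the data, and the difference stayed between -0.00257 and -0.000497. For named genes, 389 alternative values kept their direction and side of the threshold and 98 kept the direction and lost the call, 83 of these for 3′UTR footprints. The median log2 change over all transcripts was -0.57 with library totals and -0.74 with TMM on 3′UTR counts, against -0.41. Where no sample or filter was removed, the cause was not tested. When a KCl culture was left out, the lone sample was assumed to vary like the untreated ones.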
